A study of Mus musculus with 12 samples.

Results

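A set of 8 genes served as a measure of hippocampal tissue in cortex samples: the dentate gyrus is marked by Prox1, Dsp, C1ql2 and Tdo2, and the CA fields by Cabp7, Bok, Spink8 and Fibcd1. The 8 genes were taken by symbol from each of 3 deposited tables of mouse cortex, and all 8 were found among the 23951 rows of every table. The cortex came from C57BL/6 mice that differed at Mir137, which encodes the neuronal microRNA miR-137, with 4 RNA-seq libraries per genotype: knockout (KO, labelled miR-137 KO), heterozygous (Het, labelled miR-137/+) and wild type (WT). The sources used here do not state the age or sex of the mice, or whether the deletion is germline or conditional. Each table holds 1 RPKM value (reads per kilobase of transcript, scaled to the library's reads) per genotype, pooled by the authors, with the authors' own p-values and adjusted p-values, so no SD can be given, and library depth is unknown. The protocol speaks of duplicated samples and the titles number the libraries in pairs. Nothing says that 4 libraries came from 4 animals, so the p-values may measure technical spread only. Here "rose", "fell" and "passed the test" mean that the authors' deposited table gives an adjusted p below 0.05.

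The hippocampus lies directly under the neocortex and is continuous with it at the subiculum. Its excitatory neurons form a loop: granule cells of the dentate gyrus send mossy fibres to CA3 pyramidal neurons, and these project through Schaffer collaterals to CA1. Each station keeps its own gene programme, so the RNA of a few genes tells dentate, CA3 and CA1 apart. Several of these genes are also used by other cells. Prox1 marks interneurons born in the caudal ganglionic eminence as well as granule cells, and Dsp is made wherever desmosomes form.

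In Het cortex 6 of the 8 markers passed the test against WT, where 9.00% of all genes tested did, and they split by direction. Tdo2, Dsp and the CA3 gene Bok were higher than in WT, at 1.69, 1.41 and 1.51 times its level, while the CA1 genes Fibcd1 and Spink8 and the gene Cabp7 were lower, at 0.431, 0.553 and 0.612 times its level. In KO cortex none of the 4 dentate markers passed the test against WT, and only Cabp7 and Fibcd1 of the 8 did, both lower, where 14.4% of all genes did. KO and Het cortex differed in 3 markers, with Fibcd1 higher and Tdo2 and Bok lower in KO, where 1.87% of all genes passed. All 8 genes were measurable in all 3 genotypes, from 4.03 RPKM for Tdo2 in KO cortex to 80.7 RPKM for Bok in Het cortex.

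**Figure D1:**
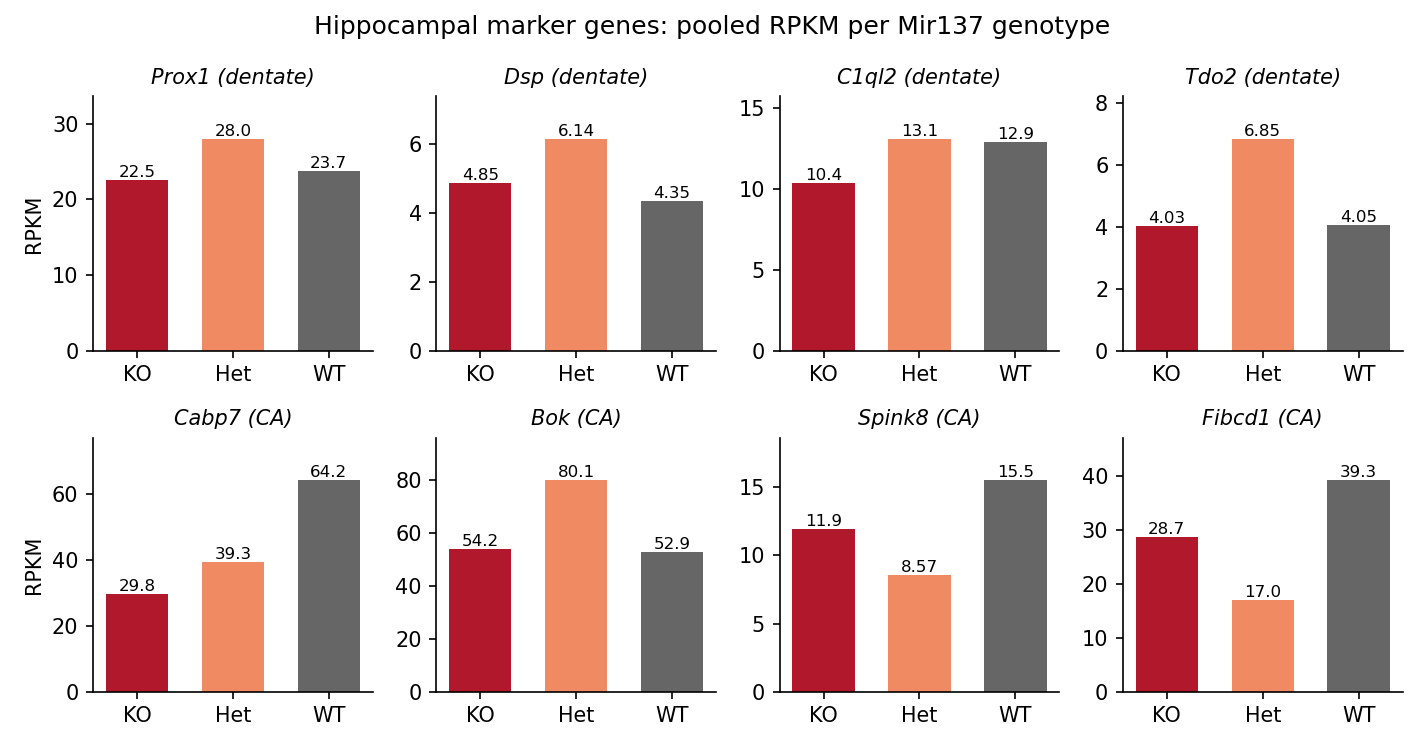
RPKM (vertical axes, each from 0) of the 8 markers in KO, Het and WT cortex; each bar is the authors' 1 pooled value of 4 libraries, so there are no error bars. Tdo2 and Bok stand highest in Het (6.85 and 80.1 RPKM), Fibcd1 and Spink8 stand lowest in Het (17.0 and 8.57 RPKM), and Cabp7 is lowest in KO (29.8 RPKM).

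Facts of the whole series that touch these values are few. Mir137 itself was listed at 0 in all 3 genotypes, and as a microRNA precursor is too short for such libraries this row checks no genotype label. Levels of 8 genes of cortical projection neurons were read beside the tissue label. Their summed level was 601 RPKM in KO, 715 RPKM in Het and 794 RPKM in WT cortex, and none was listed at 0. Of those 8 genes, 2 rose and 1 fell in Het against WT, where 3.95% of all genes tested rose and 5.06% fell. In KO against WT 1 rose and 1 fell, where 6.72% of all genes tested rose and 7.68% fell. The gene that fell in KO was Slc17a7, the vesicular glutamate transporter of cortical and hippocampal neurons, at 393 RPKM in KO and 575 RPKM in WT. With 484 RPKM in Het, Slc17a7 alone made up most of each of the 3 sums. As hippocampal neurons use it too, the sums cannot tell cortex from hippocampus. A given genotype's values for the 8 markers differed between tables by at most 0.705%.

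Prox1 encodes a homeobox transcription factor that maintains granule cell identity. It stood at 22.5 RPKM in KO, 28.0 RPKM in Het and 23.7 RPKM in WT cortex. The Het value was the highest of the 3, and neither genotype passed the test against WT (adjusted p 0.193 for Het and 0.779 for KO in the authors' deposited tables). The log2 change of RPKM + 1, a scale that understates the change of low genes and is used throughout, was 0.24 in Het against WT and -0.07 in KO against WT. Prox1 also marks caudal interneurons. Of 8 genes of those cells, 1 rose and 1 fell in Het against WT, where 3.95% of all genes tested rose and 5.06% fell. Their summed levels were 52.7 RPKM in Het and 56.5 RPKM in WT. In KO against WT 1 of 7 measured rose and none fell, where 6.72% of all genes tested rose and 7.68% fell. The sums there were 58.5 RPKM in KO and 56.6 RPKM in WT. In Het against WT the changed genes were Sp8, a transcription factor at 1.06 RPKM in Het and 0.447 RPKM in WT, and the nuclear receptor Nr2f2 at 3.83 RPKM in Het and 6.73 RPKM in WT. The part of these cells in the Prox1 value was not tested.

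Dsp encodes desmoplakin, which ties desmosomal cadherins to intermediate filaments. It stood at 4.85 RPKM in KO, 6.14 RPKM in Het and 4.35 RPKM in WT cortex. Dsp rose in Het, by 0.42 on the log2 scale (authors' deposited table, adjusted p 0.00244), and its value in KO against WT was 0.13 (adjusted p 0.495 in the authors' deposited table). Among 10 genes of meninges and desmosomes, 7 measured, 1 rose and 4 fell in Het. Of all genes tested, 3.95% rose and 5.06% fell there. Their summed level was 39.5 RPKM in Het and 75.6 RPKM in WT. The largest drop in that sum was that of Dcn, a gene of meningeal fibroblasts, at 5.94 RPKM in Het and 31.9 RPKM in WT. Lum and Slc6a13 of that list fell too, while the collagen genes Col1a1 and Col1a2 passed no test in Het. The desmosomal genes Dsg2 and Dsc2 lay below 1 RPKM, so the sum does not describe desmosome genes. In KO against WT, 2 of the 7 fell, where 7.68% of all genes tested did. The sum there was 58.5 RPKM in KO and 75.6 RPKM in WT. Pkp2, a plakophilin of desmosomes, fell to 8.93 RPKM in Het, against 15.9 RPKM in WT. The gene that rose was Jup, plakoglobin, a desmosomal partner of desmoplakin, at 7.71 RPKM in Het and 5.66 RPKM in WT; it is named after its value was seen. The part of desmosome-bearing cells outside the dentate gyrus in the Dsp value was not tested.

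C1ql2 encodes a secreted C1q-like protein that granule cells release at mossy fibre synapses, where it helps to recruit kainate receptors. It stood at 10.4 RPKM in KO, 13.1 RPKM in Het and 12.9 RPKM in WT cortex. KO was the lowest of the 3, and no comparison passed the test (adjusted p 0.971 for Het against WT, 0.161 for KO against WT and 0.445 for KO against Het in the authors' deposited tables). The log2 changes were 0.02 in Het against WT and -0.28 in KO against WT.

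Tdo2 encodes tryptophan 2,3-dioxygenase, which opens the kynurenine pathway of tryptophan breakdown; it is best known from liver and is made in brain by mature granule cells. It stood at 4.03 RPKM in KO, 6.85 RPKM in Het and 4.05 RPKM in WT cortex. KO and WT lay within 0.587% of each other, and Het stood apart from both. Tdo2 rose in Het by 0.64 on the log2 scale (adjusted p 0.0128 in the authors' deposited table) and fell in KO against Het by 0.65 (adjusted p 0.0412 in the authors' deposited table).

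CA markers differed from each other more than the dentate markers did: in Het against WT their log2 changes ran from -1.17 to 0.59, where those of the dentate markers ran from 0.02 to 0.64. Bok, a member of the Bcl-2 family that can promote cell death and is strongly expressed in CA3, stood at 54.2 RPKM in KO, 80.1 RPKM in Het and 52.9 RPKM in WT cortex. As for Tdo2, KO lay close to WT, with a ratio of 1.02, and Het stood apart. Bok rose in Het by 0.59 on the log2 scale (adjusted p 0.00135 in the authors' deposited table). It fell in KO against Het by 0.56 (adjusted p 0.00517 in the authors' deposited table). Both are the smallest adjusted p of their comparison, and other genes share them, Fibcd1 among them. Genes of the oligodendrocyte lineage moved in the same directions as Bok and Tdo2 in these 2 comparisons. Of 7 of them, 2 rose in Het against WT, where 3.95% of all genes tested did. Their summed levels were 1398 RPKM in Het and 1025 RPKM in WT. In KO against Het 3 fell, where 0.953% of all genes tested did, with 829 RPKM in KO and 1407 RPKM in Het. Mbp, the myelin basic protein gene, stood at 462 RPKM in KO and 912 RPKM in Het, and none of the 7 was listed at 0. Their part in the Bok and Tdo2 values was not tested.

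Fibcd1 encodes a membrane receptor with a fibrinogen-like domain that binds acetylated sugars, and it marks CA1. It stood at 28.7 RPKM in KO, 17.0 RPKM in Het and 39.3 RPKM in WT cortex, so the 3 genotypes were ordered with KO between Het and WT. All 3 comparisons passed the test. Fibcd1 fell in Het by 1.17 on the log2 scale, the 158th lowest value among 13738 genes of at least 1 RPKM in either genotype (adjusted p 0.00135 in the authors' deposited table). It fell in KO against WT by 0.44 (adjusted p 0.00323 in the authors' deposited table), and was 1.69 times as high in KO as in Het (adjusted p 0.00517 in the authors' deposited table). Lists of other tissues had no common direction in KO against Het, where 0.917% of all genes tested rose and 0.953% fell. Of 7 measured genes of meninges and desmosomes, 1 rose and none fell. The riser was Dcn, the decorin gene of meningeal fibroblasts, at 28.7 RPKM in KO and 5.98 RPKM in Het. Other genes of that list, named after their values were seen, passed no test there and went both ways. The collagen genes Col1a1 and Col1a2 stood at 2.98 and 6.26 RPKM in KO and 3.48 and 7.13 RPKM in Het. Lum stood at 2.92 RPKM in KO and 2.26 RPKM in Het, so Dcn does not stand for its list. Of 7 measured thalamic genes, 2 rose and 1 fell: Ntng1, a netrin-like guidance gene, stood at 4.67 RPKM in KO and 2.03 RPKM in Het, and Prkcd, a protein kinase C gene, at 13.5 RPKM in KO and 22.5 RPKM in Het. Of 7 measured choroid plexus genes, none rose and 4 fell. Their part in the Fibcd1 value was not tested.

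Spink8, a Kazal-type serine protease inhibitor and a second CA1 marker, stood at 11.9 RPKM in KO, 8.57 RPKM in Het and 15.5 RPKM in WT cortex. Its genotypes had the same order as those of Fibcd1. Spink8 fell in Het by 0.79 on the log2 scale (adjusted p 0.00841 in the authors' deposited table). Its value in KO against WT was -0.36 (adjusted p 0.215) and in KO against Het 0.42 (adjusted p 0.493), both in the authors' deposited tables.

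Cabp7, or calneuron 2, encodes a calcium-binding protein of the Golgi membrane that restrains a phosphatidylinositol kinase. It stood at 29.8 RPKM in KO, 39.3 RPKM in Het and 64.2 RPKM in WT cortex. Of the 3 markers that fell in Het, it was the one whose KO value lay below its Het value. Cabp7 fell in Het by 0.69 on the log2 scale (adjusted p 0.00135 in the authors' deposited table). In KO it fell by 1.08 (adjusted p 0.000987, the smallest of the authors' deposited table, which other genes share). Between KO and Het the value was -0.39 (adjusted p 0.303 in the authors' deposited table). In WT cortex it was the highest of the 8 markers per kilobase, whereas Bok was the highest in KO and in Het; with 1 value per genotype no spread separates neighbours in that order.

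**Figure D2:**
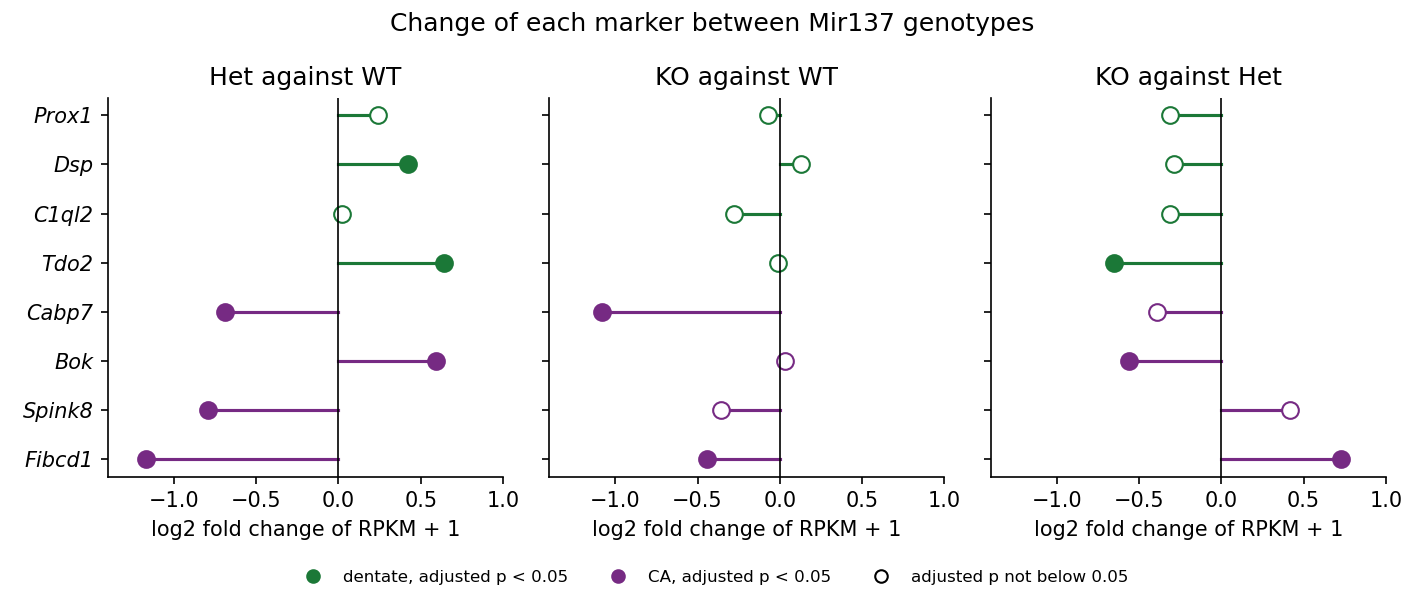
Log2 change of RPKM + 1 (horizontal axis) of each marker in Het against WT, KO against WT and KO against Het; green marks dentate and purple CA genes, filled circles have an adjusted p below 0.05 in the authors' tables. Tdo2, Dsp and Bok lie to the right and Fibcd1, Spink8 and Cabp7 to the left in Het against WT, with 6 filled circles there, 2 in KO against WT and 3 in KO against Het.

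Counted together, 6 of the 8 markers passed the test in Het against WT, 3 higher and 3 lower, where 9.00% of the 14159 genes tested passed, 3.95% higher and 5.06% lower. Their median log2 change was 0.13, which hides a median of 0.33 over the 4 dentate and -0.74 over the 4 CA markers; the median of all genes tested was 0.0083. In KO against WT, 2 of the 8 passed, both lower, where 14.4% of 14059 genes passed, 6.72% higher and 7.68% lower. The medians were -0.04 for dentate and -0.40 for CA markers, against 0.007 over all genes tested. In KO against Het, 3 of the 8 passed, 1 higher and 2 lower, where 1.87% of 14062 genes passed, 0.917% higher and 0.953% lower. The medians there were -0.31 for dentate and 0.02 for CA markers, against 0.0001 over all genes tested. Without adjustment, the authors' p was below 0.05 for 7 of 8 markers in Het against WT, where 19.5% of genes were, for 3 of 8 in KO against WT, where 26.5% were, and for 8 of 8 in KO against Het, where 9.81% were. Each pair of comparisons shares 1 genotype's libraries, so these counts are not independent of each other. The 8 markers were chosen with earlier results of these data known, so their counts carry no test. In bulk RNA, fewer cells of a type and less RNA per cell cannot be told apart.

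**Figure D3:**
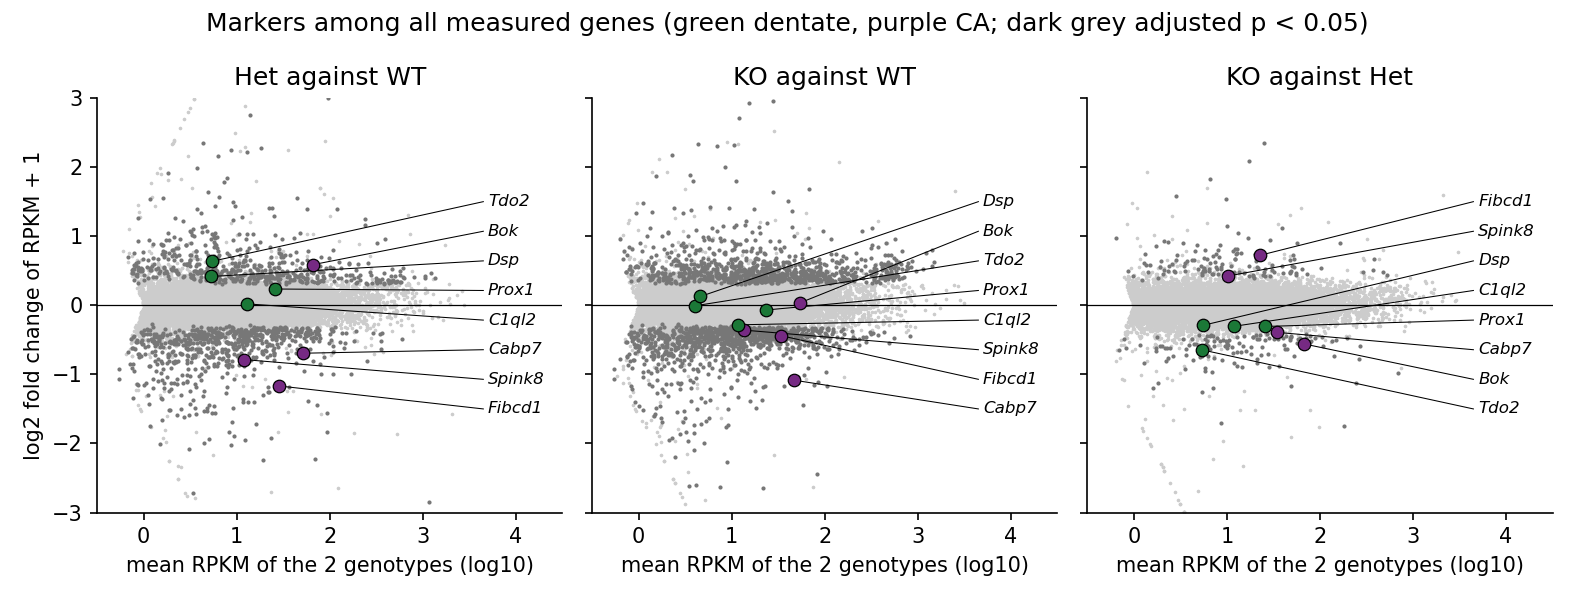
Log2 change of RPKM + 1 (vertical axis) against the mean RPKM of both genotypes (log10 scale, horizontal axis) for all genes of at least 1 RPKM in either genotype; dark grey genes have an adjusted p below 0.05 and the 8 markers are labelled. The 125, 125 and 129 genes beyond a change of 3 in either direction are outside the frames. The markers sit at moderate to high levels, and Fibcd1 is the lowest of them in Het against WT and the highest in KO against Het.

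Other genes of the same regions were read beside the 8 markers. The 5 lists hold 25 further hippocampal genes, of which 23 were measured. In Het against WT, 5 rose and 7 fell, and in KO against WT, 2 rose and 10 fell, with medians of -0.03 and -0.30. In KO against Het, 2 rose and 4 fell. Of all genes tested, 3.95% rose and 5.06% fell in Het against WT, and 6.72% rose and 7.68% fell in KO against WT. The shares in KO against Het were 0.917% and 0.953%. The same shares are the background for the counts of each list above and below. The lists were chosen with earlier results of these data known, so their counts carry no test.

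Of 6 granule cell genes, 2 rose in Het and none fell, with a median log2 change of 0.20. Lct, the lactase gene, stood at 4.75 RPKM in Het and 3.13 RPKM in WT, and Neurod1, a transcription factor needed to form granule cells, at 40.7 RPKM in Het and 29.2 RPKM in WT. In KO against WT none rose and 1 fell, Dock10, a guanine nucleotide exchange factor, at 5.11 RPKM in KO and 6.85 RPKM in WT. In KO against Het 2 fell, Lct at 2.52 RPKM in KO and 4.78 RPKM in Het, and the semaphorin Sema5a at 15.9 RPKM in KO and 22.1 RPKM in Het. Of 3 genes of hilar mossy cells, 2 fell in Het and 3 fell in KO. Among them Csf2rb2, a cytokine receptor subunit, stood at 0.84 RPKM in Het and 2.22 RPKM in WT. Calb2, the calretinin gene, which interneurons use too, stood at 65.3 RPKM in Het and 90.7 RPKM in WT.

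The CA3 gene Iyd, an iodotyrosine deiodinase, had the pattern of Bok. It was 2.08 times as high in Het as in WT, at 7.94 RPKM in Het and 3.81 RPKM in WT (log2 change 0.89), and fell to 3.63 RPKM in KO, against 8.0 RPKM in Het. The cadherin gene Cdh24 fell in Het, at 3.66 RPKM against 5.38 RPKM in WT, and in KO, at 3.68 RPKM against 5.39 RPKM in WT, and the other 2 of the 4 CA3 genes passed no test. Of 5 measured CA2 genes, 2 rose and 2 fell in Het, and 2 rose and 3 fell in KO. The risers were Pcp4, a calmodulin regulator that striatal neurons also express, at 514 RPKM in Het and 264 RPKM in WT, and the neurotrophin gene Ntf3, at 8.21 RPKM in Het and 4.35 RPKM in WT. Amigo2, an adhesion protein gene used to outline CA2, fell to 8.26 RPKM in Het, against 12.2 RPKM in WT.

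Of 5 further CA1 genes, only Nov and Mpped1 fell in Het, as Fibcd1 did, and the others passed no test there. Nov, which encodes a secreted matricellular protein, fell to 38.5 RPKM in Het, against 107 RPKM in WT, a log2 change of -1.45, and was 1.9 times as high in KO as in Het, at 73.6 RPKM in KO and 38.8 RPKM in Het. Mpped1, a metallophosphoesterase gene also present in cortex, stood at 46.0 RPKM in Het and 66.0 RPKM in WT, and at 64.5 RPKM in KO and 46.3 RPKM in Het. Wfs1, the wolframin gene of the endoplasmic reticulum, fell in KO, at 20.9 RPKM against 38.5 RPKM in WT. It also fell in KO against Het, at 21.0 RPKM in KO and 34.6 RPKM in Het, opposite to Fibcd1. Of the 5 CA1 genes, 2 fell in Het and 2 in KO, none rose against WT, and in KO against Het 2 rose and 1 fell. Genes of newborn neurons and their progenitors, which the dentate gyrus shares with the subventricular zone, rose in 4 of 5 measured members in Het and in 4 of 5 in KO, and Calb2 fell in both. Eomes, a factor of intermediate progenitors, stood at 2.49 RPKM in Het and 1.2 RPKM in WT.

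**Figure D4:**
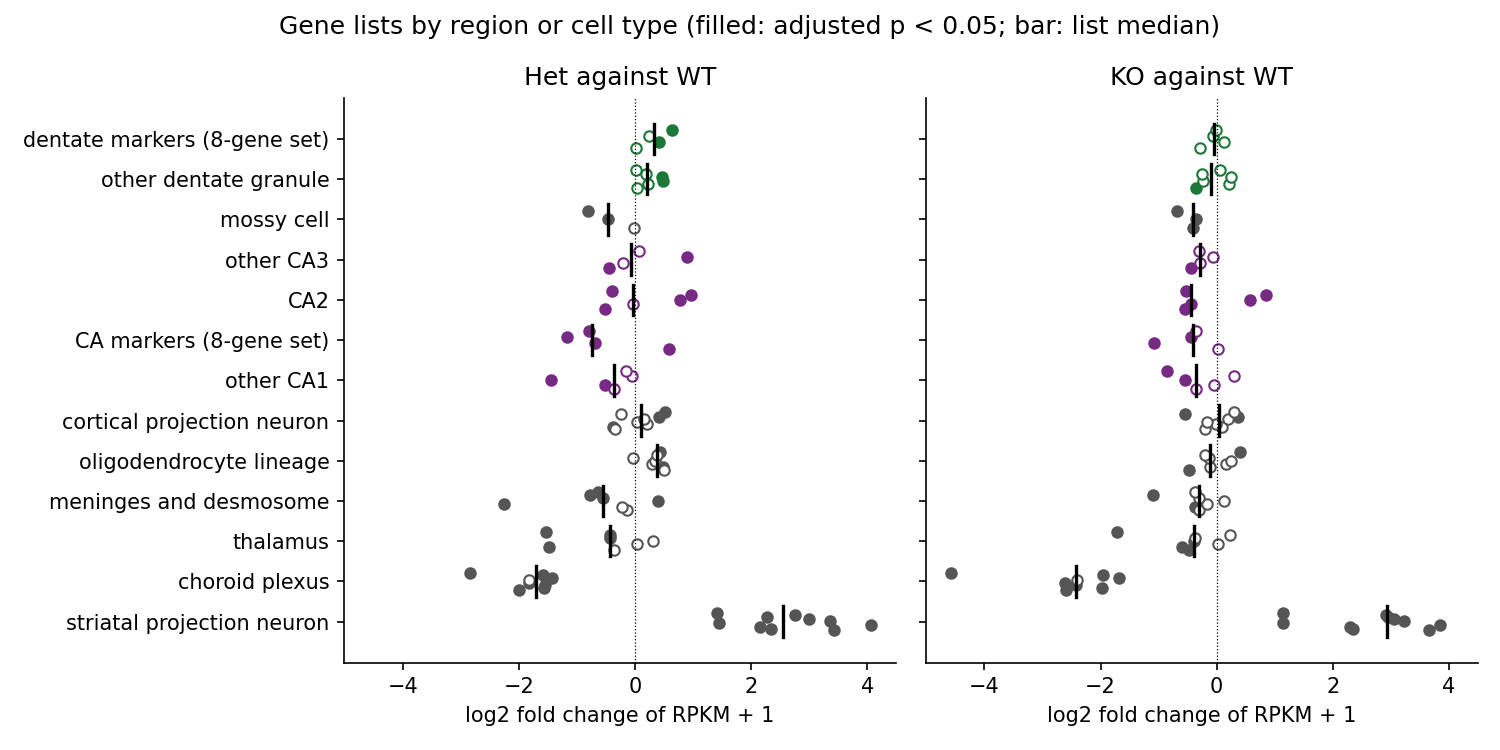
Log2 change of RPKM + 1 (horizontal axis) for each measured gene of the lists named at the left in Het against WT and KO against WT; filled circles have an adjusted p below 0.05 in the authors' tables and the black bar is the list's median. In Het the medians are 0.33 for dentate markers, 0.20 for other granule cell genes, -0.47 for mossy cell genes, -0.74 for CA markers, -0.36 for other CA1, -0.07 for other CA3 and -0.03 for CA2 genes, while striatal genes (median 2.56) and choroid plexus genes (median -1.71) lie farther out.

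Striatal and choroid plexus genes had larger median changes than the hippocampal markers. All 10 striatal projection neuron genes rose in Het and in KO, with summed levels of 475 RPKM in Het and 485 RPKM in KO, against 61.1 RPKM in WT. Of 8 choroid plexus genes, 7 fell in each genotype, with sums of 337 RPKM in Het and 113 RPKM in KO, against 2208 RPKM in WT. Most of each sum was 1 gene, Ttr, at 281 RPKM in Het, 83.6 RPKM in KO and 2027 RPKM in WT. Of 7 measured thalamic genes, 4 fell in each, with sums of 49.0 RPKM in Het and 48.1 RPKM in KO, against 61.7 RPKM in WT. None of the genes of these 3 lists was listed at 0. The 4 dentate markers summed to 41.8 RPKM in KO, 54.1 RPKM in Het and 45.0 RPKM in WT, and the 4 CA markers to 125 RPKM in KO, 145 RPKM in Het and 172 RPKM in WT. The part of dissection or of neighbouring tissue in any marker's value was not tested.

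To see which markers carry a seed match to the deleted microRNA, the mature miR-137 of RefSeq (mmu-miR-137-3p, GRCm38.p6, chr3:118433901-118433923, plus strand) is printed with its seed, bases 2 to 8, in capitals.
mmu-miR-137-3p: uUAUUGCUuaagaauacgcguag
The longest annotated 3' UTR of each marker (GENCODE M21) was searched for AGCAATA (bases 2 to 8) and GCAATAA (bases 2 to 7 followed by A), on the transcribed strand, where both together make AGCAATAA. Prox1 held 3 matches in 5185 nt and Dsp 2 in 645 nt, and the other 6 markers held none, among them Fibcd1 with 3148 nt and Cabp7 with 1929 nt. Of 12398 measured genes with an annotated 3' UTR, 16.1% held at least 1 match, and their median 3' UTR was 1244 nt. The matches are shown at the right end of 22 bases each, in capitals, to set the 2 genes that hold them beside their values.
Prox1, from base 2788 of the 3' UTR: tttccaagtacagctGCAATAA
Prox1, from base 3049: gagaagcactatagaAGCAATA
Prox1, from base 4579: gcctttatattatttAGCAATA
Dsp, from base 115: gttcaagacgtagctGCAATAA
Dsp, from base 622: aagtttgctgttctgGCAATAA

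Prox1 stood at 0.951 times its WT level in KO and 1.19 times in Het, and passed neither test. Dsp stood at 1.11 times its WT level in KO, which did not pass the test, and at 1.41 times in Het, which did. Of the 6 markers without a match, Cabp7 and Fibcd1 passed the test in KO and Tdo2, Cabp7, Bok, Spink8 and Fibcd1 in Het. A match is a run of letters and shows no binding.

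Tdo2, Bok and Fibcd1 were the 3 markers called both in Het against WT and in KO against Het, with Tdo2 and Bok high in Het and Fibcd1 low. Promoters of 7 of the 8 markers were matched in RefSeq, from 250 bases before to 50 after the start, and Spink8 was not. Those of these 3 genes are printed because the genes changed in both comparisons, a choice made after their values were seen. Capitals mark GC boxes (GGGCGG) and TATA boxes (TATAAA) on either strand.
Tdo2, GRCm38.p6, chr3:81975679-81975978, minus strand: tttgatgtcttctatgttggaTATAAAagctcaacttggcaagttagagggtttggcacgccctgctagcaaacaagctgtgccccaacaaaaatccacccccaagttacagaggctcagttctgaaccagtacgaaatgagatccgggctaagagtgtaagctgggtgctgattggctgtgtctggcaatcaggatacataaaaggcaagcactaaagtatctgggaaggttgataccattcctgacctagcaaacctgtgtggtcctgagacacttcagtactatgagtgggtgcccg
Bok, GRCm38.p6, chr1:93685325-93685624, plus strand: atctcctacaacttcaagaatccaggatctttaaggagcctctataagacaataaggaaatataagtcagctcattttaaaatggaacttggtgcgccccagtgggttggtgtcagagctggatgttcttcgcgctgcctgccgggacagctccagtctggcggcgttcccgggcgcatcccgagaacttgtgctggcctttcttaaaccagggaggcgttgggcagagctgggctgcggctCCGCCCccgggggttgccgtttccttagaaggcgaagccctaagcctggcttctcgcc
Fibcd1, GRCm38.p6, chr2:31845956-31846255, minus strand: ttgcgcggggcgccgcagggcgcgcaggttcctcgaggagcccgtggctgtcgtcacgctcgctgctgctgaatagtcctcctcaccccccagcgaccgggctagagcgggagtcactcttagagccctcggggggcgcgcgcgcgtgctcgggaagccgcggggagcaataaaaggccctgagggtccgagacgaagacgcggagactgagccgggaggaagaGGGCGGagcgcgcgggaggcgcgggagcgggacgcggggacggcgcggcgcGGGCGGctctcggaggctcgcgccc

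The Tdo2 window was 47.7% G or C and held no GC box and 1 TATA box match, at -229 from the start. That of Bok was 56.3% with 1 GC box. That of Fibcd1 was 74.3% with 2 GC boxes, at -26 and 25 from the start. The median of all promoters was 52.7%. All these are matches of letters, counted on either strand and at any place in the window, and none is shown to act. Over the 7 markers with a matched promoter, 6 held a GC box, 2 a TATA box (Prox1 and Tdo2) and 4 an E-box, CANNTG (Prox1, Dsp, C1ql2 and Cabp7). Prox1 has 2 promoters and was counted if either held the match. Of all 32851 promoters of this length, each counted singly and not per gene, 35.7% held a GC box, 13.6% a TATA box and 72.3% an E-box.

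Across the 3 genotypes, the genes nearest to the markers were found by the distance between their pair of log2 changes (Het against WT and KO against WT) and the marker medians, over 13390 genes of at least 1 RPKM in WT. Nearest to the dentate medians of 0.33 and -0.04 were Dus4l, Myl12a, Cpm, Egr3 and 4930539J05Rik. Of these only Egr3, an immediate early transcription factor, passed the test in Het, at 25.9 RPKM against 20.5 RPKM in WT (adjusted p 0.0405 in the authors' deposited table). Among the 5 nearest to the CA medians of -0.74 and -0.40 were Nkd2, Gstm2, Kit and AW551984. Kit, a receptor tyrosine kinase, stood at 15.6 RPKM in KO, 11.6 RPKM in Het and 20.3 RPKM in WT. With 3 values per gene, likeness of this kind is a description only.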

How the data were processed

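The authors deposited 3 pairwise tables with an RPKM value per genotype, pooled over its 4 libraries, per the file headers. For each gene the deposited tables give a p-value and a q-value from the authors' own test. Genes with a p below 1 were taken as tested, since the q-values are the Benjamini-Hochberg adjustment of those. Cuffdiff 2.2.1, TopHat2 2.0.13, CASAVA 1.4 and the build mm9 are listed without roles in the submitters' processing notes. The deposited log2 fold column holds error cells and was not used. Genotypes were taken from the titles, and 0 columns were left unmapped.

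No test was run here, since 1 pooled value per genotype carries no spread. Calls across all genes use the authors' q below 0.05. Log2 changes are differences of log2(RPKM + 1), and a gene was measured at 1 RPKM or more in either genotype. The steps were tested on simulated data. Named genes are the 8 markers, up to 3 called genes per list and comparison by largest change (the most abundant where none was called), the 5 nearest genes and Mir137; Dpyd and Pde10a, also in the rule, are not discussed, and 1 of the nearest genes is not reported here. A few further list genes were named beyond that rule, after their values were seen. The members and lists were chosen with earlier results of these data known, and the sequences shown were chosen after the values were seen. Alternatives covered pseudocounts of 0.1 and 0.01, recentred folds, q below 0.01, a minimum absolute log2 change of 0.5, joint adjustment, and a minimum of 5 RPKM or none. Sequences are from RefSeq and GENCODE M21 on GRCm38, a build other than that of the tables, matched by symbol. Tables were handled with pandas 2.3.3 and numpy 2.4.6 under Python 3.11.15, and figures drawn with matplotlib 3.10.9.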

Additional observations from a re-analysis of the deposited data

How the results depend on the processing

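Of 144 combinations of a marker, a comparison and an alternative, 140 kept their direction and their side of the threshold. Many of these outcomes were fixed in advance, so the count is no measure of robustness. The pseudocounts and recentring could change only a direction. Joint adjustment could change only the side of the threshold, and the stricter q and the minimum change could only remove a call. Tdo2 did not pass at q below 0.01 in Het against WT or in KO against Het, and Dsp in Het and Fibcd1 in KO did not reach a minimum absolute log2 change of 0.5. With that minimum, 1 marker was called in KO against WT in place of 2. In KO against Het, 12 other listed genes were called at q below 0.01 in place of 20. The other counts stayed within 1.5 times their value. No paired analysis was possible because the libraries of a genotype were pooled into 1 value, and for the same reason no library could be left out. The depth is unknown, so how far it limits a low gene such as Tdo2 or Dsp cannot be stated.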

Other observations

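RPKM is scaled per length and per library, so 2 genes can be set against each other within a genotype; the pairs below were chosen after their values were seen and carry no test. Bok stood at 1.89 times Fibcd1 in KO, 4.71 times in Het and 1.35 times in WT cortex, so the CA3 gene exceeded the CA1 gene by most in Het. Fibcd1 stood at 1.28 times Prox1 in KO, 0.607 times in Het and 1.66 times in WT cortex. Tdo2 stood at 0.14 times Fibcd1 in KO, 0.403 times in Het and 0.103 times in WT cortex. Cabp7 stood at 1.32 times Prox1 in KO, 1.4 times in Het and 2.71 times in WT cortex. Het lay near KO in that ratio only. Both genes stood higher in Het, Cabp7 at 39.3 RPKM against 29.8 RPKM in KO and Prox1 at 28.0 RPKM against 22.5 RPKM.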
